A study of Mus musculus with 5 samples.

Results

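TREM receptors and their signaling adaptor were described here in sorted mouse bone marrow (BM) monocytes and neutrophils. The members are the rows with the symbols Trem1, Trem2, Trem3, Treml2, Treml4 and Tyrobp, and all 6 were found among the 23234 gene symbols of the deposited RNA-seq libraries. The 5 libraries, 1 per condition, came from C57BL/6 mice aged 7 weeks with the genotype +/Ym1Venus, in which the fluorescent protein Venus reports expression of Ym1, a chitinase-like protein. Ly6Chi monocytes, gated as Ly6C+ CD115+ cells, were sorted 48 h after intravenous LPS (100 µg per mouse) as Venus+ (Ym1+ monocytes) and as Venus- (Ym1- monocytes), and from untreated mice as Venus- (naive monocytes). Neutrophils were sorted as Ly6G+ cells from untreated mice and from mice given LPS 48 h earlier. The number of mice behind each library was not stated in the sources consulted.

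TREM receptors (triggering receptors expressed on myeloid cells) are surface proteins of the immunoglobulin superfamily. Trem1, Trem2 and Trem3 have short cytoplasmic tails and signal by pairing with Tyrobp, also called DAP12, an adaptor whose immunoreceptor tyrosine-based activation motif (ITAM) is phosphorylated by Src family kinases and recruits the kinase Syk. Trem1 amplifies inflammatory responses of neutrophils and monocytes. Trem2 binds lipids and lipoproteins and is known from tissue macrophages, microglia and osteoclasts.

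Levels are given in FPKM, the number of fragments scaled by transcript length and library size. Differences were taken on the scale of log2(FPKM + 1), over genes that reached an FPKM of 1 in either library of a pair, and a gene at least 2-fold apart on this scale was counted. With 1 library per condition there is no replicate check, no test and no p-value, and each difference describes a pair of libraries. In such bulk libraries, fewer cells of a type and less RNA per cell cannot be told apart. Read numbers were not stated, but steps between low values gave, for a 2 kb transcript at an FPKM of 10, roughly 190 (Ym1+), 86.3 (Ym1-), 119 (naive monocytes), 154 (neutrophils after LPS) and 185 (naive neutrophils) fragments. The 95% intervals below rest on this estimate and on the shortest protein-coding transcript of each gene, and they cover counting error only. Lineage markers separated the libraries as labelled. Ccr2, a chemokine receptor of Ly6Chi monocytes, was between 434 and 499 in the 3 monocyte libraries and at most 1.13 in neutrophils, and Ngp, a neutrophil granule gene, was at 36159 and 38174 in neutrophils and at most 387 in monocytes. Chi3l3, the gene of Ym1, was at 1759 in Ym1+, 386 in Ym1- and 430.03 in naive monocytes, with 1712 and 1484 in neutrophils after LPS and naive neutrophils. Ly6g was not found among the symbols, and the Ym1- library held Prg2, an eosinophil granule gene, at 27.97, against 0.24 in naive and a listed 0 in Ym1+ monocytes.

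Trem1, Trem2, Trem3, Treml2 and Treml4 are neighbors on chromosome 17, whereas Tyrobp lies on another chromosome. The RefSeq promoter table of the build GRCm38.p6 matched 3 of the 6 members, Trem1, Treml4 and Trem2, and their sequences are shown as neighbors whose levels are described separately below. Each sequence holds the 250 bases before the annotated start, 5′ to 3′ on the plus strand, at chr17:48232489-48232738 (Trem1), chr17:48264045-48264294 (Treml4) and chr17:48346151-48346400 (Trem2). Capitals mark matches, on either strand, to the PU box GAGGAA bound by the myeloid factor PU.1, to a C/EBP motif TTNNGNAA, and to the AP-1 motif TGANTCA.
Trem1: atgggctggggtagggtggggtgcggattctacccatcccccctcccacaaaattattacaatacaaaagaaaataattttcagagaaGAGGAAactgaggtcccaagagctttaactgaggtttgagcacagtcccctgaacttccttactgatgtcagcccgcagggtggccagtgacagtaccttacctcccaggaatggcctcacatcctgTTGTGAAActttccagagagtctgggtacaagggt
Treml4: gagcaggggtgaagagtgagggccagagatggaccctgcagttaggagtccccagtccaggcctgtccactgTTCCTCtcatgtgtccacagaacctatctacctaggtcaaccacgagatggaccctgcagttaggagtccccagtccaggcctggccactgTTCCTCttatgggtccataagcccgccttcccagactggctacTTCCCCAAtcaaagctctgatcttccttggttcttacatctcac
Trem2: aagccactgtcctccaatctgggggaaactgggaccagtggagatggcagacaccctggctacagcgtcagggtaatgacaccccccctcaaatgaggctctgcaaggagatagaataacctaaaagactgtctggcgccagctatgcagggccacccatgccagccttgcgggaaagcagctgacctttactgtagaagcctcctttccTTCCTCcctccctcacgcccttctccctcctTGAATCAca
Upstream of Trem1 there was 1 PU box, beginning 162 bases before the start, and 1 C/EBP match, beginning 35 bases before it. Treml4 had PU boxes on the minus strand at 178 and 87 bases and a C/EBP match at 44 bases. Trem2 had a minus-strand PU box at 40 bases and an AP-1 match at 9 bases. No matches overlapped each other in these windows. Of all 32851 windows of this length in the table, 23.3% hold a PU box, 36.8% the C/EBP letters and 6.75% the AP-1 letters, so matches of the first 2 kinds are common, and none of them shows that a factor binds.

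Trem1 was high in neutrophils and low in monocytes. Its FPKM was 65.9 in naive neutrophils, 70.6 in neutrophils after LPS, 9.64 in Ym1+ monocytes, 6.10 in Ym1- monocytes and 1.30 in naive monocytes. Both neutrophil libraries lay above all 3 monocyte libraries, and the naive monocytes were lowest, with a level that rests on about 16 fragments. Naive neutrophils exceeded naive monocytes by 4.86 on the log2 scale, a ratio of 50.6 (95% interval 31.4 to 89.7). After LPS, neutrophils exceeded Ym1- monocytes by 3.33 and Ym1+ monocytes by 2.75.

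Trem3, a DAP12-coupled receptor of mouse myeloid cells next to Trem1, was the most abundant of the 5 receptors in neutrophils. Its FPKM was 326 in naive neutrophils, 252 in neutrophils after LPS, 71.4 in Ym1+ monocytes, 54.6 in Ym1- monocytes and 23.3 in naive monocytes. The order of the lineages was that of Trem1, again with the naive monocytes lowest. The lineage difference was 3.75 between the naive libraries, a ratio of 14.0 (11.8 to 16.7), and after LPS it was 2.19 against Ym1- and 1.81 against Ym1+ monocytes.

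Treml2, a TREM-like receptor of neutrophils, macrophages and lymphocytes, followed the same order of lineages over a narrower range. The FPKM values were 56.7 in naive neutrophils, 96.4 in neutrophils after LPS, 25.4 in Ym1+ monocytes, 21.6 in Ym1- monocytes and 16.96 in naive monocytes. Here the neutrophils after LPS, rather than the naive neutrophils, were highest. The lineage difference was 1.68 in the naive libraries (ratio 3.35, 2.89 to 3.89), 2.11 after LPS against Ym1- and 1.88 against Ym1+ monocytes.

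Trem2 had the opposite pattern. It was at 40.6 in Ym1- monocytes, 39.5 in Ym1+ monocytes and 27.5 in naive monocytes, at 0.11 in naive neutrophils, and listed at 0 in neutrophils after LPS. The naive neutrophil value corresponds to about 1 fragment, and an exact 0 in these files can be a failed estimate. The difference of naive neutrophils from naive monocytes was -4.68 on the log2 scale, and the ratio of monocytes to neutrophils was 248, with a 95% interval from 47.7 to 10707 because of that single fragment. For neutrophils after LPS only the listed 0 is given, with no ratio.

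Treml4, a receptor for dying cells known from dendritic cells and Ly6Clow monocytes, did not separate the lineages. Its FPKM was 16.8 in naive neutrophils, 11.8 in naive monocytes, 9.85 in Ym1+ monocytes, 6.61 in Ym1- monocytes and 2.84 in neutrophils after LPS. The neutrophil libraries thus held both the highest and the lowest level. In this order, the first 4 levels differed from their neighbors by less than the counting error, and the step from Ym1- monocytes to neutrophils after LPS had a ratio of 2.33 (1.09 to 4.79). The lineage difference was 0.48 in the naive libraries, -0.99 after LPS against Ym1- monocytes and -1.50 against Ym1+ monocytes.

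Tyrobp was abundant throughout. The adaptor had an FPKM of 2206 in naive neutrophils, 1546 in neutrophils after LPS, 1460 in naive monocytes, 949 in Ym1+ monocytes and 829 in Ym1- monocytes. At most 1.10% of the genes with an FPKM of 1 or more stood above it in any library, and in naive neutrophils it was the gene of rank 23. Neutrophils exceeded monocytes by 0.59 in the naive libraries, by 0.90 after LPS against Ym1- and by 0.70 against Ym1+ monocytes, all under 2-fold.

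**Figure D1:**
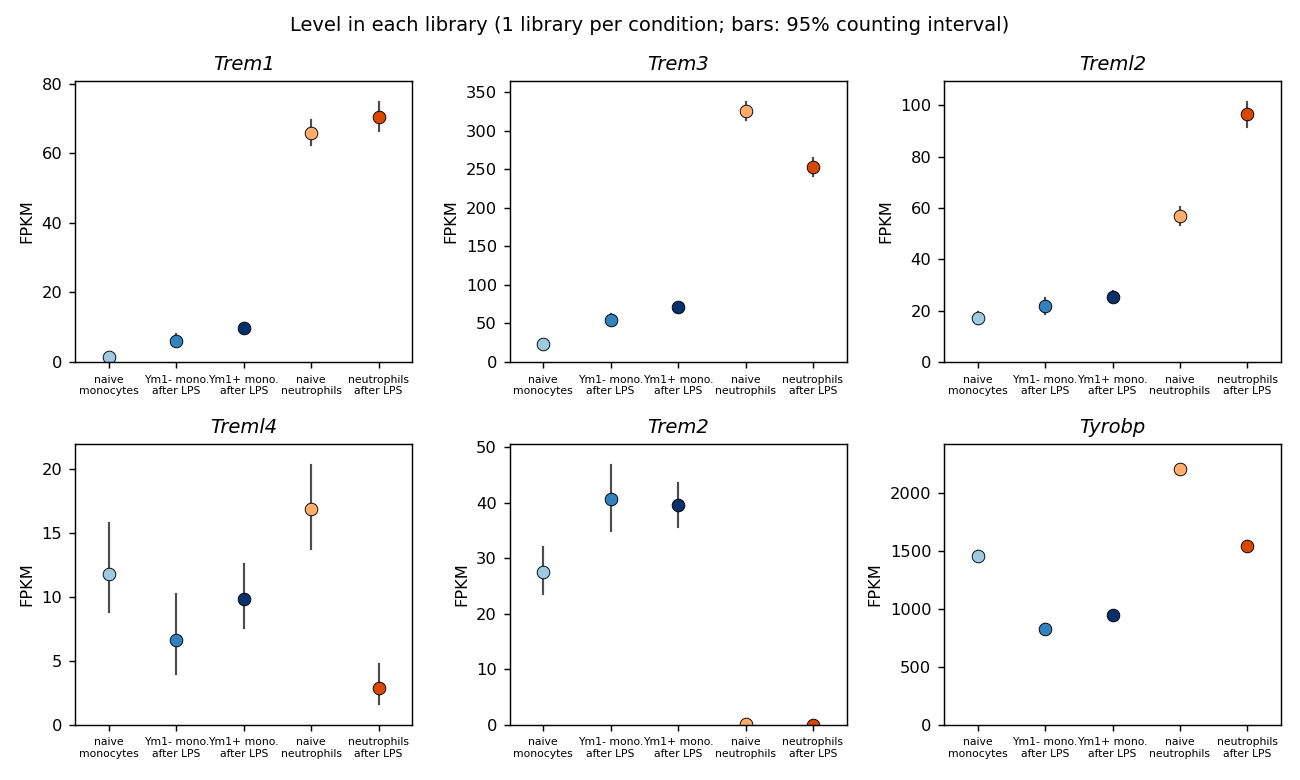
Level of each gene in FPKM (vertical axes, starting at 0) in the 5 libraries, with 1 point per library and 95% counting intervals as bars. Trem1, Trem3 and Treml2 are highest in both neutrophil libraries, Trem2 is between 27.5 and 40.6 in monocytes and at most 0.11 in neutrophils, and Treml4 ranges from 2.84 to 16.8 within neutrophils.

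Counted over the members, 3 of 6 (Trem1, Trem3 and Treml2) were at least 2-fold higher in naive neutrophils than in naive monocytes, against 10.8% of all 10944 genes, and 1 (Trem2) was lower, against 42.7%. Apart in either direction were 4 of 6, beside 53.6% of all genes, so the number apart was not above the background. The median over the members was 1.14 and over all genes -0.79. After LPS, the same count against Ym1- monocytes was 3 higher (11% of all genes) and 1 lower (40.8%), with 51.7% of all genes apart. Against Ym1+ monocytes it was 3 higher (9.53%) and 2 lower (36.4%), Trem2 and Treml4, with 45.9% of all genes apart. Both comparisons after LPS use the same neutrophil library, so they are not independent of each other. Beside the all-gene medians below 0, S100a8 and S100a9 alone took 29.96% of the FPKM in naive neutrophils and at most 2.39% in monocytes. Rescaled to TPM, the all-gene median of the naive comparison was -1.15. With median-of-ratios scaling it was -0.03, and Tyrobp at 1.44 and Treml4 at 1.27 were then above 2-fold as well. The differences of Trem1, Trem3, Treml2 and Trem2 kept their sign in all 3 comparisons under both scalings. This could not have come out otherwise. The smallest ratio was 3.35, the size factors ran only from 0.72 to 1.29, and no scaling alters the listed 0 of Trem2.

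After LPS, Trem1 and Trem3 were higher in monocytes and Treml4 was lower in neutrophils than in the naive library of the same lineage. In Ym1- monocytes, which share the Venus- gate with the naive monocytes, Trem1 was higher than in naive monocytes by 1.63 on the log2 scale, a ratio of 4.68 (2.69 to 8.90). Trem3 was higher by 1.196 (ratio 2.35, 1.89 to 2.92). These were the 2 of 6 members at least 2-fold higher, against 2.86% of all 10714 genes, and no member was 2-fold lower, against 4.72%, with 7.58% of all genes apart. Only 0.67% of genes had a larger difference than Trem1, and 1.66% a larger one than Trem3. Trem2 differed by 0.55 (ratio 1.48, 1.19 to 1.82) and Treml2 by 0.33 (1.27, 1.04 to 1.55). Treml4 differed by -0.75 (0.56, 0.30 to 0.95) and Tyrobp by -0.82, a ratio of 0.57 (0.54 to 0.60) for the adaptor.

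Ym1+ monocytes, for which LPS and the Venus gate change together, were set against the same naive library. There Trem1 was higher by 2.21 (ratio 7.40, 4.49 to 13.4) and Trem3 by 1.58 (3.07, 2.56 to 3.72), again 2 of 6 members against 2.59% of genes, with none lower against 4.51% and 7.1% of genes apart. Trem2 differed by 0.51, Treml2 by 0.55, Treml4 by -0.23 and Tyrobp by -0.62. Since both comparisons use the naive monocyte library, their likeness is no separate result.

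In neutrophils, Treml4 was the member with the largest difference after LPS. It was at 2.84 after LPS and 16.8 in naive neutrophils, a difference of -2.22 on the log2 scale, and the naive level was 5.93 times the level after LPS (3.38 to 10.8). Only 0.51% of genes had a lower value in this comparison. Of the 5 members that reached an FPKM of 1 in this pair, Treml4 was the 1 at least 2-fold lower, against 5.35% of all 9583 genes, and none was 2-fold higher, against 8.96%, with 14.3% of genes apart. Trem1, at 0.10, differed by less than the counting error (ratio 1.07, 0.99 to 1.16). Treml2 differed by 0.75 (1.70, 1.57 to 1.84), Trem3 by -0.37 (0.78, 0.73 to 0.82) and Tyrobp by -0.51 (0.70, 0.68 to 0.72). Trem2 did not enter because it was under 1 in both libraries.

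**Figure D2:**
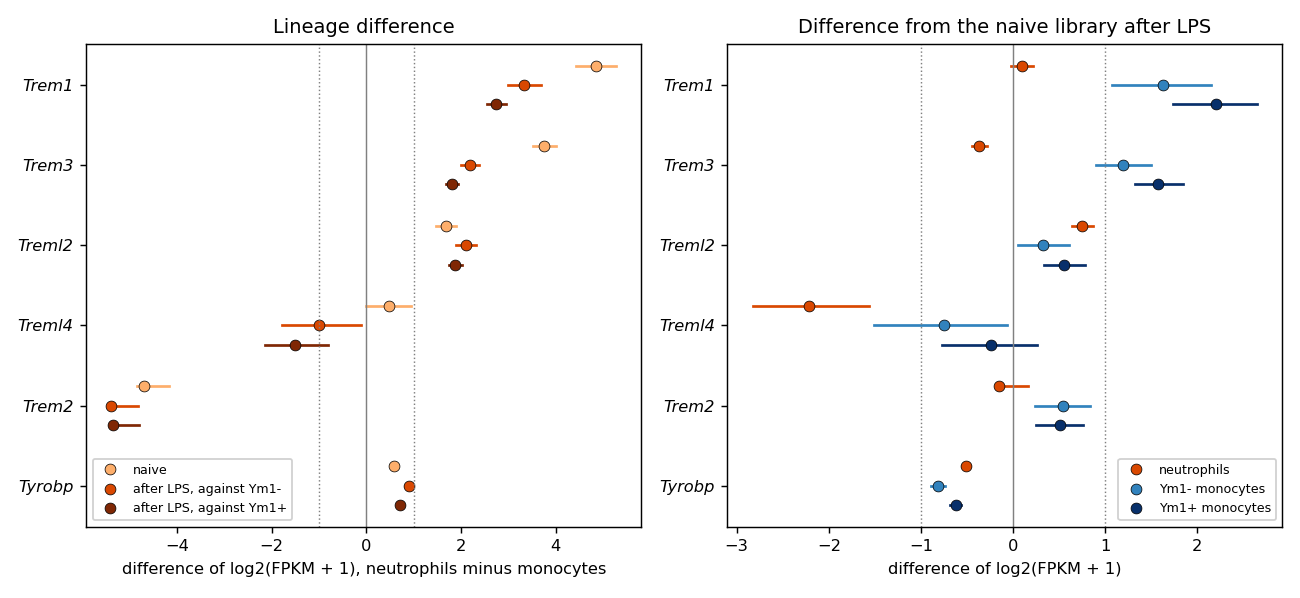
Differences of log2(FPKM + 1) (horizontal axes) for each gene, as neutrophils minus monocytes on the left and as a library after LPS minus the naive library of its lineage on the right. Points are single pairs of libraries, bars are 95% counting intervals and dotted lines mark 2-fold. Trem1 and Trem3 lie to the right for both monocyte libraries after LPS but at 0.10 and -0.37 for neutrophils, and Treml4 in neutrophils lies at -2.22. The Trem2 points that use neutrophils after LPS rest on a listed 0.

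Several marker lists also differed between these libraries, and their part in the differences above was not tested. Of 10 neutrophil markers 9 were found, with a summed FPKM of 1258 in naive, 1950 in Ym1- and 14040 in Ym1+ monocytes. Against naive monocytes, 0 were 2-fold higher (2.86% of all genes) and 4 lower (4.72%) in Ym1- monocytes, with a median of -0.37. In Ym1+ monocytes 7 were higher (2.59%) and 0 lower (4.51%), with a median of 1.49. As a share of the neutrophil library of the same treatment, Trem1 was at 1.98% in naive, 8.64% in Ym1- and 13.7% in Ym1+ monocytes. Trem3 was at 7.15%, 21.6% and 28.3%, in the same order. The granule genes Ngp, Ltf and Camp were at 0.25% to 0.30%, 0.08% to 0.13% and 0.93% to 1.07%, so that in Ym1- monocytes, where Trem1 and Trem3 were higher than in naive monocytes, these 3 genes were lower. S100a8 and S100a9 were higher there, at 1107 and 648 against 594.5 and 331 in naive monocytes. Over all 9 markers the shares ran from 0.11% to 14.3%, 0.08% to 12.8% and 0.27% to 18.4%, the upper end being Csf3r, the G-CSF receptor gene, in each library. Csf3r was also among the 4 lower markers, at 30.2 in Ym1- and 66.1 in naive monocytes.

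**Figure D3:**
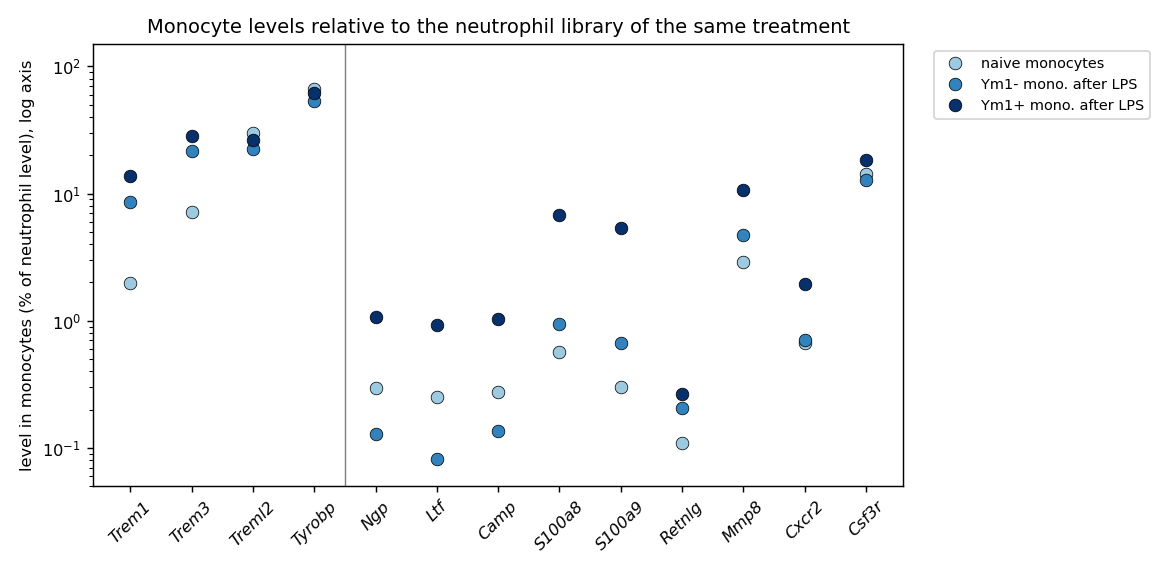
Level in each monocyte library as a percentage of the neutrophil library of the same treatment (vertical log axis), for 4 members on the left of the line and 9 neutrophil markers on the right. In Ym1+ monocytes Trem3 is at 28.3% and Trem1 at 13.7%, while the markers run from Retnlg at 0.27% to Csf3r at 18.4%.

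For Treml4 in neutrophils, platelet markers summed to 50.8 in the naive library and 2.94 after LPS, erythroid markers to 25.0 and 7.20, and tissue macrophage markers to 36.9 and 19.7. The 7 markers of Ly6Clow monocytes summed to 191 and 149, mostly from the integrin gene Itgal (125 and 94.5) and Spn (58.1 and 50.3). Nr4a1 was at 5.10 and 3.01 and Eno3 at 1.56 and 0.48, while Ace (0.04 and a listed 0), Cx3cr1 (0.11 and 0.08) and Pou2f2 (0.26 and 0.15) were near 0. All 5 dendritic cell markers together came to 0.98 and 0.31. For Treml4 in monocytes, the Ly6Clow markers summed to 435 in naive, 234 in Ym1- and 209.8 in Ym1+ monocytes, with Ace at 20.96, 0.45 and 0.61 and Cx3cr1 at 88.0, 19.8 and 8.38. Dendritic cell markers summed to 40.8, 10.4 and 1.18 in the same order, while Treml4 was at 11.8, 6.61 and 9.85. Both lists were thus lower after LPS, and their part in the Treml4 values was not tested. For Trem2 in monocytes, tissue macrophage markers summed to 55.2 in naive, 72.6 in Ym1- and 132 in Ym1+ monocytes. In this order C1qa was at 0.52, 4.62 and 17.2, but Emr1, the largest of the list, at 45.4, 33.7 and 44.8, and Axl at 5.44, 10.8 and 6.93. Osteoclast markers summed to 4.34, 11.7 and 10.9, mostly from Acp5 (4.05, 10.8 and 10.2). Trem2 did not differ between Ym1+ and Ym1- monocytes beyond counting error, and the part of these lists in its values was not tested.

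Between the 2 monocyte subsets after LPS, the count of members apart was near the background. None of the 6 members was 2-fold apart, against 1.38% of 10489 genes higher, 1.18% lower and 2.56% apart in either direction. Trem1 was higher in Ym1+ monocytes by 0.58 (ratio 1.58, 1.16 to 2.16), Trem3 by 0.38 (1.31, 1.13 to 1.52) and Tyrobp by 0.20 (1.14, 1.09 to 1.21). Treml2 at 0.22, Treml4 at 0.51 and Trem2 at -0.04 were within the counting error, and the sign of the Trem2 value turned with the scaling. The median over the members was 0.30 and over all genes -0.06. Larger differences were held by 4.36% of genes for Trem1, 5.53% for Treml4 and 8.93% for Trem3. For Treml2, Tyrobp and Trem2 these shares were 17.5%, 19.9% and 47.1%.

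The make-up of the receptor transcripts follows from ratios within a library, which no scaling of whole libraries alters. Trem3 took 70.0% of the summed FPKM of the 5 receptors in naive neutrophils and 59.8% after LPS, but 28.8% in naive monocytes, where Trem2 was the largest with 34.0%. After LPS Trem3 was the largest in monocytes too, at 42.2% (Ym1-) and 45.8% (Ym1+), with Trem2 at 31.3% and 25.4%. Treml4 had 14.6% in naive monocytes and 0.67% in neutrophils after LPS. Trem1 contributed 1.61% in naive monocytes and 16.7% in neutrophils after LPS.

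**Figure D4:**
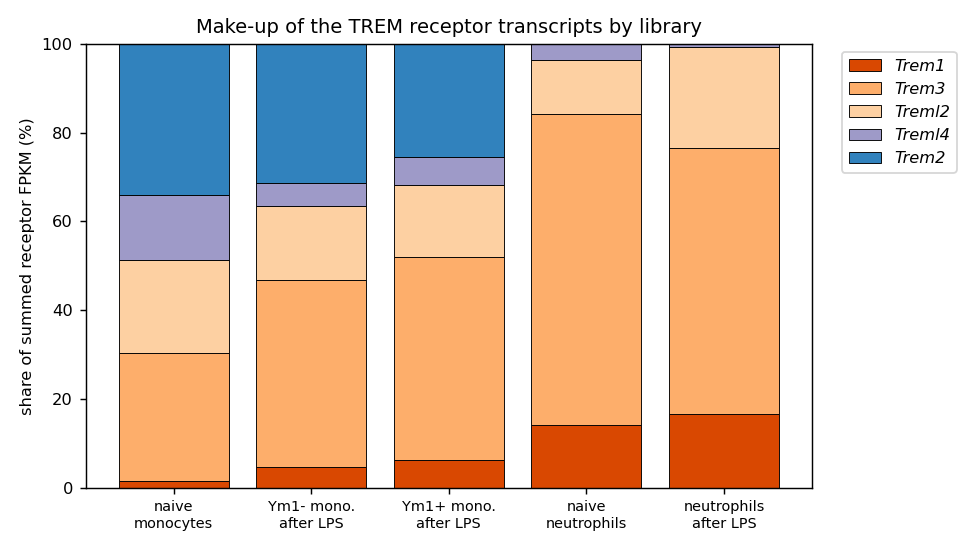
Share of each receptor in the summed FPKM of the 5 receptors (vertical axis, percent), with 1 bar per library. Trem3 makes up 59.8% and 70.0% of the bars of the neutrophils, while Trem2 has 25.4% to 34.0% in monocytes and at most 0.02% in neutrophils.

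Against the summed level of Trem1, Trem2 and Trem3, Tyrobp was highest in naive monocytes, with an FPKM 28.03 times their sum of 52.1. This ratio was 8.18 in Ym1- and 7.87 in Ym1+ monocytes, 5.63 in naive neutrophils and 4.78 in neutrophils after LPS, and it leaves out the other receptors that use the adaptor. It was lower after LPS in both lineages, while the sum of the 3 receptors was 323 after LPS and 392 in naive neutrophils, and 101 and 121 in Ym1- and Ym1+ monocytes. Per 100 FPKM of Tyrobp, Trem1 was at 0.09 in naive monocytes, 0.74 in Ym1- monocytes, 1.02 in Ym1+ monocytes, 2.99 in naive neutrophils and 4.57 in neutrophils after LPS. Fcer1g, which encodes the Fc receptor gamma chain, the other abundant ITAM adaptor of myeloid cells, stayed within a ratio of 0.96 to 1.38 of Tyrobp to Fcer1g in all 5 libraries.

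The other genes of the cluster were set beside the members. By order in the RefSeq table, 9 protein-coding genes lie from 9830107B12Rik (also named Trem5) to Treml1, and they include B430306N03Rik (Treml6). Between the naive libraries 6 of the 9 were at least 2-fold higher in neutrophils (10.8% of all genes) and Trem2 alone was lower (42.7%), with a median of 2.12 beside -0.79 for all genes. A530064D06Rik, also named Trem4, and 9830107B12Rik were looked up after the other values had been seen. A530064D06Rik was at 107 in naive neutrophils, 93.6 in neutrophils after LPS, 23.9 in naive monocytes, 8.61 in Ym1- monocytes and 21.9 in Ym1+ monocytes. B430306N03Rik had 136, 98.8, 26.1, 12.98 and 27.2 in the same order. Both were lowest in Ym1- monocytes, where Trem1 and Trem3 stood above the naive level. Both were at least 2-fold higher in Ym1+ than in Ym1- monocytes (by 1.25 and 1.01), against 1.38% of all genes. 9830107B12Rik reached 43.0 and 27.1 in neutrophils and at most 2.03 in monocytes. Treml1, a platelet receptor gene, was at 1.74 in naive neutrophils and under 1 elsewhere, with 0.90 in naive monocytes. Platelet markers were also highest in naive neutrophils, and their part in the Treml1 value was not tested.

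**Figure D5:**
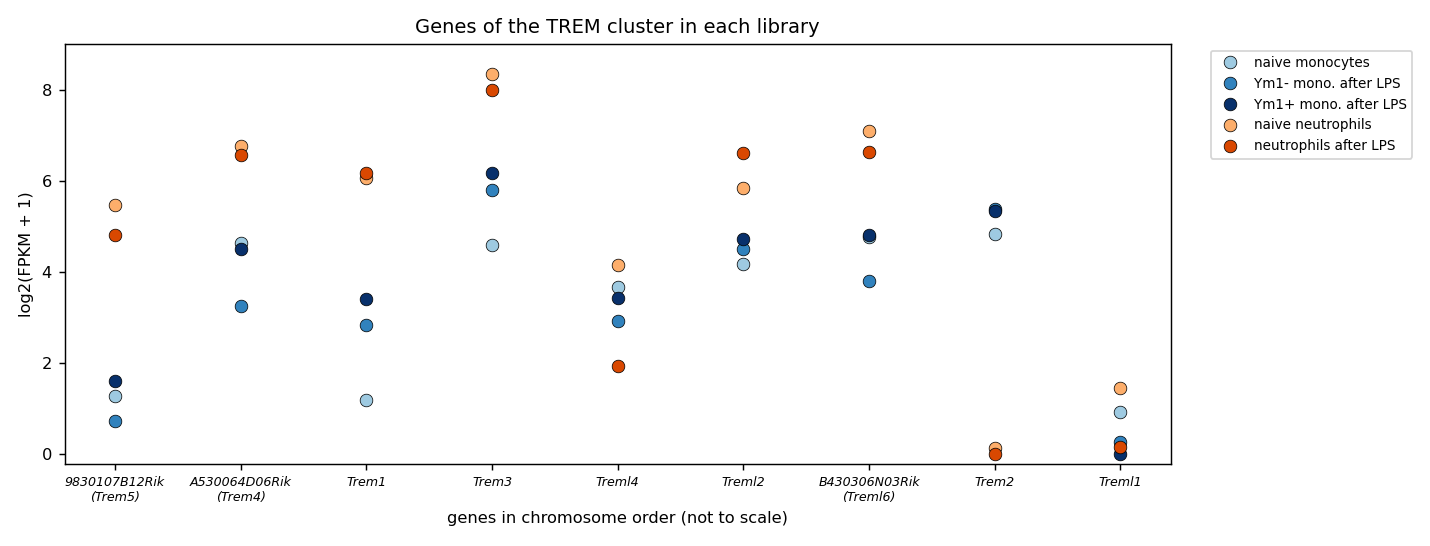
Level of the 9 genes of the cluster as log2(FPKM + 1) (vertical axis), in chromosome order, with 1 point per library. For 6 genes both neutrophil libraries lie above all monocyte libraries, whereas Trem2 is near 0 in neutrophils and Treml4 has neutrophils at both ends of its range.

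Of the other receptors listed here as coupled to Tyrobp, several were higher in neutrophils, and the coupling of each was not checked. Of 12 listed receptors 11 were found and 9 entered the naive comparison, of which 5 were higher in neutrophils (10.8% of all genes) and 1 lower (42.7%), with a median of 1.45 beside -0.79 for all genes. After LPS, 6 of 10 were higher (11% of all genes) and 1 lower (40.8%) against Ym1- monocytes. Against Ym1+ monocytes 4 of 9 were higher (9.53%) and none lower (36.4%). Cd300lb had 160 in naive neutrophils and 57.8 in naive monocytes, Pilrb1 145 and 22.2, and Clec5a, a C-type lectin receptor, 105 and 24.5. Klrk1, the NKG2D receptor gene, was the lower one at 0.03 against 3.13. Within monocytes, 4 of 9 were lower in Ym1- after LPS than in naive monocytes (4.72% of all genes) and none was higher (2.86%). They were Cd300lb (26.7 against 57.8), Sirpb1b (16.8 against 39.3), Sirpb1a (7.03 against 19.0) and Klrk1 (1.06 against 3.13). In Ym1+ monocytes 1 of 9 was lower (Klrk1 at 0.74, 4.51% of all genes) and 1 higher (Cd200r4 at 3.51 against 1.02, 2.59%). The median was 0.02, and -0.64 in Ym1-. Some of these calls lay near the threshold, with Klrk1 at -1.005 in Ym1- and Sirpb1a at -0.90 and Cd300lb at -0.82 in Ym1+, where Sirpb1b was at -0.26. None of 9 was 2-fold apart between Ym1+ and Ym1- monocytes, against 2.56% of all genes. The median of Ym1+ minus Ym1- was 0.60 over these receptors and -0.06 over all genes. In neutrophils Cd300lb was lower after LPS, at 74.9 against 160, the 1 of 9 that was 2-fold apart. Of all genes, 5.35% were lower and 14.3% apart in this comparison. The paired Pilrb1 and Pilrb2 genes, the Sirpb1 genes and the Cd300 genes are close copies, so reads may be divided among them. Hcst, which encodes the adaptor DAP10, was at 128 in naive neutrophils, 34.7 in neutrophils after LPS and between 14.4 and 28.7 in monocytes.

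Most downstream kinases and signaling proteins were under 2-fold apart between the lineages. Of 26 genes, 22 entered the naive comparison, 2 were higher in neutrophils and 3 (Lat2, Malt1 and Vav2) lower, with a median of -0.18. The shares of all genes were 10.8% and 42.7%, and their median was -0.79. Syk, the kinase recruited by the ITAM, was between 73.4 and 131 in all libraries, and Plcg2, a phospholipase, between 109 and 147. Fgr, a Src family kinase, was at 238 in naive neutrophils and 99.0 in naive monocytes, and Pik3cb at 31.4 and 9.19. Lat2, an adaptor of ITAM signaling also called NTAL, was at 2.14 in naive neutrophils and 61.0 in naive monocytes. After LPS Lat2 was at 25.0 in neutrophils, 3.05 higher on the log2 scale and the 1 gene of 20 that was 2-fold higher (8.96% of all genes). Tec was the 1 that was lower, at 3.43 against 12.6 (5.35% of all genes). In Ym1- monocytes after LPS, Tec (6.00 against 14.1) and Vav3 (8.40 against 18.6) were lower than in naive monocytes and none of 22 was higher. The shares of all genes were 4.72% lower and 2.86% higher.

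Inhibitors of the pathway were split. Of 11 genes, 3 were higher in naive neutrophils than in naive monocytes and 1 was lower, with a median of 0.01, beside 10.8% higher, 42.7% lower and a median of -0.79 for all genes. Cd300lf, an inhibitory receptor, was at 203 against 8.98, Pilra at 176 against 16.8 and Dok2 at 18.0 against 4.02, with Cblb lower at 0.42 against 7.66. Ptpn6, the phosphatase SHP-1, was between 341 and 441 in all libraries, and Inpp5d, the lipid phosphatase SHIP-1, between 48.7 and 64.9. In Ym1- monocytes after LPS, 2 of 11 were higher than in naive monocytes, Cd300lf at 20.2 and Dok2 at 11.3, against 2.86% of all genes, and none was lower, against 4.72%. Cd300lf and Pilra were also 2-fold higher in Ym1+ than in Ym1- monocytes, at 44.0 and 57.2 against 20.2 and 25.8. These were 2 of 11, against 1.38% of all genes.

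Ligands reported for Trem1 and Trem2 were also unequal between the lineages. Pglyrp1, a peptidoglycan recognition protein of neutrophil granules that binds Trem1, was at 2633 in naive neutrophils, 3165 in neutrophils after LPS, 101 in Ym1+, 24.6 in Ym1- and 52.9 in naive monocytes. Apoe, a lipid carrier that binds Trem2, was at 351 in naive monocytes, 77.9 in Ym1+ and 30.0034 in Ym1- monocytes, 22.3 in naive neutrophils and 3.95 in neutrophils after LPS. Apoe was thus lower after LPS in every pair, while Trem2 in monocytes was not. Of the 5 ligand genes, 4 entered the naive comparison with 1 higher and 2 lower (10.8% and 42.7% of all genes), the lower ones being Apoe and Hmgb1 (105 against 352). The cleavage genes, sheddases and gamma-secretase subunits that process Trem2, had 2 of 7 lower in naive neutrophils, Adam17 at 14.8 against 34.3 and Aph1a at 24.9 against 60.2, with a median of -0.85 beside -0.79 for all genes. None of the 7 was 2-fold apart after LPS in either lineage, against 14.3% of all genes in neutrophils, 7.58% in Ym1- and 7.1% in Ym1+ monocytes.

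The genes with the most similar profiles were found by the root mean square difference between log2(FPKM + 1) profiles, each centered on its mean, over the 5 libraries and 11212 genes. For Trem1 these were Cd300lf (0.23), Gca (0.23) and Fpr2 (0.28), the second encoding the calcium-binding protein grancalcin and the third a formyl peptide receptor. For Trem3 they were Gcnt2 (0.20), Ifi27l1 (0.24) and Fpr3 (0.25), and for Treml2 Ube2h (0.12), Sri (0.14) and 9030418K01Rik (0.14). Treml4 was closest to Nlrp3 (0.10), the inflammasome sensor gene, whose FPKM was 21.4 in naive neutrophils, 18.1 in naive monocytes, 12.7 in Ym1+ monocytes, 9.74 in Ym1- monocytes and 4.27 in neutrophils after LPS, the same order as Treml4. Of the steps in the Treml4 order, only the last, to neutrophils after LPS, exceeded the counting error. Next to Treml4 after Nlrp3 were Olfr856-ps1 (0.22) and A130077B15Rik (0.22). Trem2 was closest to Gm5424 (0.24), Lpxn (0.29), which encodes the focal adhesion protein leupaxin, and Prdx4 (0.33), and Tyrobp to Crlf2 (0.05), Med13l (0.06) and Notch1 (0.07). With 5 points, such likeness is a description of these libraries.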

How the data were processed

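RNA-seq of 5 sorted BM populations, 1 library each, was analyzed. The authors deposited FPKM values for 23234 symbols, none occurring more than once. The processing notes of the submitters list TopHat2 2.0.8 and Cufflinks 2.1.1, with mm9 as the build. Neither options nor an annotation is given in the sources used. Because FPKM values are not counts, no count model was fitted. For 7 pairs of libraries, log2(FPKM + 1) was subtracted with Python 3.11.15, numpy 2.4.6, pandas 2.3.3 and scipy 1.17.1. Fragment numbers were estimated from the most frequent low value of FPKM times length over genes with 1 GENCODE transcript longer than 800 bases, and intervals are exact Poisson or Clopper-Pearson intervals at 95%.

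Members and the gene lists (7 of pathways and 11 of cell markers) were chosen with earlier results of these data known. Named genes are the members, listed genes that are abundant or 2-fold apart, and the 3 nearest profiles of each member. Of 66 pathway genes 65 were found, by symbol or older name. Alternatives tried were a pseudocount of 0.1, an FPKM minimum of 5 or none, rescaling to TPM, median-of-ratios scaling, and a threshold of 4-fold.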

Additional observations from a re-analysis of the deposited data

Results flagged for a closer look

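Among the members that reached an FPKM of 1 in each pair, and on the scale of the main comparison, Trem3 had differences after LPS of opposite sign in neutrophils and in both monocyte libraries. It was -0.37 on the log2 scale in neutrophils after LPS against naive neutrophils, 1.196 in Ym1- monocytes and 1.58 in Ym1+ monocytes against naive monocytes. The neutrophil value is under 2-fold. Whether the lineages differ was not tested, since each condition has 1 library.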

How the results depend on the processing

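Of 41 member differences, 2 changed sign under any scaling, both near 0, namely Trem1 in neutrophils after LPS (0.10, and -0.02 on the TPM scale) and Trem2 between the monocyte subsets (-0.04, 0.00016 on the TPM scale and 0.02 with median-of-ratios scaling). At a 4-fold threshold the members apart were 3 rather than 4 for naive neutrophils against naive monocytes, where Treml2 dropped out. They were 2 rather than 5 for neutrophils after LPS against Ym1+ monocytes. Against naive monocytes they were 0 rather than 2 for Ym1- and 1 rather than 2 for Ym1+ monocytes. At this threshold, the shares of all genes apart were 20.68%, 12.96%, 0.93% and 1.44% for these pairs, in the order given. With median-of-ratios scaling Tyrobp was above 2-fold in neutrophils in all 3 lineage comparisons (1.44, 1.71 and 1.46), and Treml4 after LPS against Ym1+ monocytes was -0.88. Treml4 after LPS against Ym1- monocytes passed 2-fold with a pseudocount of 0.1 (-1.19) and on the TPM scale (-1.44). Of all genes counted, 20.2% were higher in naive neutrophils and 48.0% with median-of-ratios scaling. After LPS these shares were 21.2% and 50.9% against Ym1-, and 20.8% and 51.7% against Ym1+ monocytes. For neutrophils after LPS against naive neutrophils the share was 62.6%, and 51.1% on the TPM scale. No paired analysis was possible because each condition has 1 library, so no library could be left out either. Counting error limits Trem2 in neutrophils most, at about 1 and 0 fragments, and then Treml4 and the Trem1 level of naive monocytes.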
